A study of Mus musculus with 8 samples.

Results

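The distal-less homeobox genes of the mouse, Dlx1 to Dlx6, were compared between the epidermis of newborn EED cKO and control mice. The members were taken as every array probe whose RefSeq accession belongs to Dlx1, Dlx2, Dlx3, Dlx4, Dlx5 or Dlx6. Each of the 6 genes had 1 probe, and together they make up 6 of the 36799 genes and other targets on the array and 6 of the 23155 that could be tested. The study asked how gene expression in the epidermis changes when Polycomb repressive complex 2 (PRC2) is lost, and hybridized RNA of 4 EED cKO and 4 control samples on 8 two-colour arrays. The EED cKO mice carried K14-Cre; EED flox/flox, so that the Cre recombinase driven by the keratin 14 promoter deletes Eed in keratinocytes and the cells that descend from them, and not in melanocytes, immune or endothelial cells. The control samples are labelled as control with no allele named. All samples were back skin epidermis of untreated P0 newborn C57BL/6 mice, described as biological replicates, and whether a sample came from 1 animal is not given in the sources used here. The RNA is that of a whole epidermal cell preparation, so a change in the number of cells of a type and a change in RNA per cell cannot be told apart in any value given here.

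The Dlx genes encode homeodomain transcription factors related to Distal-less of the fruit fly, which is needed to form the outer parts of its limbs. In mammals they lie as neighbouring pairs, Dlx1 with Dlx2, Dlx3 with Dlx4 and Dlx5 with Dlx6, the genes of a pair being transcribed towards each other and sharing enhancers between them. Dlx1 and Dlx2 are best known from the GABAergic interneurons of the forebrain, Dlx5 and Dlx6 from the branchial arches, limbs and bone, and Dlx3 from the differentiating layers of the epidermis, the hair matrix and the placenta. PRC2, in which EED is a core subunit, places methyl groups on lysine 27 of histone H3 and keeps many developmental regulators silent, most often at promoters rich in CpG.

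Values are log2 ratios of the sample over Universal Mouse Reference RNA, a purchased pool of mouse RNA that every array shared. The sample was labelled with Cy3 on replicates 1 and 3 and with Cy5 on replicates 2 and 4 of both genotypes. In the sample channel, 51.5% to 65.5% of probes of an array stood well above background, and no spot was saturated. Eed, the targeted gene, was lower in EED cKO, with a log2 difference of -1.46 (standard error 0.090, limma adjusted p = 2.16e-05). All 8 arrays lay on 1 slide, with each genotype in a row of its own, so that slide row and genotype cannot be told apart. Y-linked genes were high only in control replicates 2 and 3, with mean log2 ratios of 1.19 and 1.02 against -1.51 to -1.31 on the other 6 arrays, so the sexes were not balanced between the genotypes. All 8 keratinocyte markers listed, among them Krt5 and Krt14, were well above background and tested. Of all 23155 tested, 21.7% passed an adjusted p of 0.05, 11.8% being higher and 9.92% lower in EED cKO, and 1.2% also differed by at least 2-fold. The split was 2729 higher to 2298 lower, and 1015 higher to 1539 lower when arrays were centred on the median in place of loess normalization.

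Of the 6 Dlx genes, Dlx2 and Dlx1 were higher and Dlx4 was lower in EED cKO epidermis at an adjusted p below 0.05, and only Dlx2 passed the 2-fold limit as well. Dlx3, Dlx5 and Dlx6 did not pass the test. The 3 called members among 6 compare with 21.7% of all genes tested, 2 higher with 11.8%, 1 lower with 9.92% and 1 past the 2-fold limit with 1.2%. The 4 EED cKO and the 4 control arrays did not overlap for 2 of the members, Dlx2 and Dlx4, against 17.2% of all genes tested. The median difference of the 6 members was 0.017 on the log2 scale, next to 0.019 over all genes tested. Dlx1, Dlx2 and Dlx6 passed the filter on dim probes through the EED cKO arrays alone, being well above background on 3, 4 and 4 of those arrays and on 0, 2 and 2 of the control arrays.

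**Figure D1:**
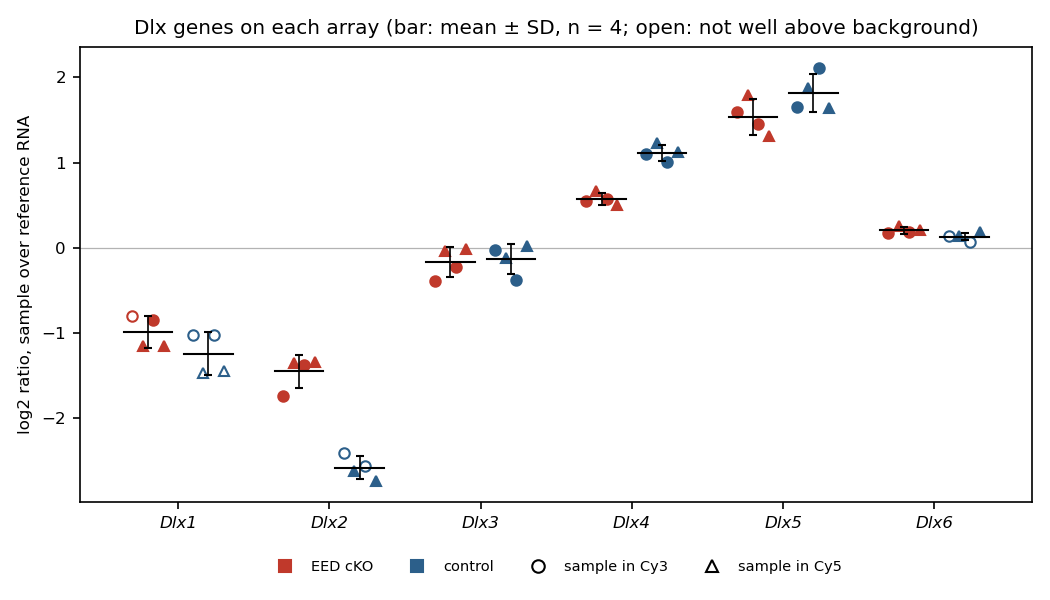
Log2 ratio of sample over reference RNA (vertical axis) for each Dlx gene (horizontal axis) on the 4 EED cKO arrays (red) and the 4 control arrays (blue), with circles for samples in Cy3, triangles for samples in Cy5, open symbols where the probe was not well above background, and bars for the mean ± SD. The EED cKO arrays lie above all control arrays for Dlx2 (-1.74 to -1.34 against -2.74 to -2.41) and below all of them for Dlx4 (0.50 to 0.66 against 1.00 to 1.23), while the other genes overlap.

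The promoters of Dlx1 and Dlx2, the pair whose members both rose, are shown because PRC2 commonly acts at CpG-rich promoters. They are the 250 bases upstream of the annotated start in RefSeq on GRCm38.p6, written 5′ to 3′ on the strand of the gene, with every CpG in capitals. Of the 6 Dlx genes, Dlx1 and Dlx2 matched an entry in the promoter table used here, and Dlx3, Dlx4, Dlx5 and Dlx6 were not analysed for it. Whether PRC2 acted at these promoters was not tested. The Dlx1 window is chr2:71529195-71529444 on the plus strand and the Dlx2 window is chr2:71546755-71547004 on the minus strand, both upstream of the transcribed part of their gene.
Dlx1 promoter: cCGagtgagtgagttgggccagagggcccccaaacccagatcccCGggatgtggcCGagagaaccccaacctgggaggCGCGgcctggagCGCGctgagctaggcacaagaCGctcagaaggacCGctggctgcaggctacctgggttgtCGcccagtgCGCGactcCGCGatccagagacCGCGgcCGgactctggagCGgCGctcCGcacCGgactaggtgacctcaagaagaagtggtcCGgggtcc
Dlx2 promoter: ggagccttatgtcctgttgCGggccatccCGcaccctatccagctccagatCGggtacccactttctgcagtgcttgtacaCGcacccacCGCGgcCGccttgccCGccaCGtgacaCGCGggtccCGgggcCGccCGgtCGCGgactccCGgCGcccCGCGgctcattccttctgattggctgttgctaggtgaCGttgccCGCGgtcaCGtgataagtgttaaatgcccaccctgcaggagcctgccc
The Dlx1 window holds 22 CpGs at 68.0% G and C, an observed over expected CpG ratio of 0.76, and more CpGs than 85.2% of the 32851 promoters in the table. The Dlx2 window holds 24 CpGs at 66.4% G and C, a ratio of 0.89, and more CpGs than 88.0% of them. The median promoter had 6 CpGs, 52.4% G and C and a ratio of 0.37, so both windows are on the CpG-rich side. The homeodomain core TAATTA, which reads the same on both strands, and the TATA motif TATAAA, searched on both strands, are in neither window and in 4.8% and 12.4% of all promoters. CCAAT, searched on both strands, is in the Dlx2 window and not in that of Dlx1, and in 33.8% of all promoters.

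Dlx2, which with Dlx1 drives the differentiation of forebrain interneurons, was higher in EED cKO epidermis on every array. Its log2 ratios were -1.74, -1.35, -1.38 and -1.34 on EED cKO replicates 1 to 4 and -2.41, -2.62, -2.56 and -2.74 on control replicates 1 to 4. The groups did not overlap, and EED cKO replicate 1 was the one EED cKO array that stood nearer to the controls. The mean was -1.45 ± 0.19 (SD, n = 4) for EED cKO arrays and -2.58 ± 0.14 (SD, n = 4) for the controls. The log2 difference was 1.13 (standard error 0.11, 95% interval 0.88 to 1.38, limma adjusted p = 0.000353), which is 2.19-fold, and the exact permutation test over the 8 arrays, two-sided, gave p = 0.0286, the smallest that 4 against 4 arrays allow. It was the 188th largest rise among the 23155 genes and targets tested. Same-numbered arrays differed by 0.66, 1.27, 1.18 and 1.40, all in the same direction, and the difference was 0.92 among the arrays with the sample in Cy3 and 1.33 among those in Cy5. Without EED cKO replicate 1 the difference was 1.24.

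The Dlx2 signal was low in both genotypes. The median spot intensity of the sample channel was 74, 152.5, 106 and 92.5 on EED cKO replicates 1 to 4 and 39, 51, 47 and 38 on the control replicates, over a local background of 21 to 27. The weakest EED cKO array was therefore brighter than the strongest control array before any normalization. The reference channel of the same spots read 577 to 712.5 on the EED cKO and 604.5 to 702 on the control arrays, and the log2 difference in that channel alone was -0.03 (limma adjusted p = 0.931). The background correction used here adds an offset of 50, which draws dim ratios towards 0. The Feature Extraction log ratio, which has no such offset and another dye normalization, ran from -2.41 to -1.58 in EED cKO and from -6.57 to -3.87 in control, a difference of 3.01 (limma adjusted p = 0.00617).

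Dlx1, the partner of Dlx2 in the same cells of the forebrain, was higher by a smaller margin. Its log2 ratios were -0.80, -1.15, -0.85 and -1.15 on EED cKO replicates 1 to 4 and -1.02, -1.47, -1.03 and -1.45 on control replicates 1 to 4. Over both dyes the groups overlapped, but within each dye both EED cKO arrays lay above both control arrays. The means were -0.99 ± 0.19 (SD, n = 4) and -1.24 ± 0.25 (SD, n = 4). The log2 difference with dye as a covariate was 0.26 (standard error 0.063, 95% interval 0.12 to 0.40, limma adjusted p = 0.0187), 0.20 among Cy3 and 0.31 among Cy5 arrays, while the exact permutation test, which leaves the dye out, gave p = 0.171. The Dlx1 probe was well above background on no control array, so its level there is only bounded. With the measured control signal taken as its upper limit, the ratio of the means in the sample channel was at least 1.15-fold. That figure makes no allowance for the spread between arrays, and the sample channel difference did not pass the test (limma adjusted p = 0.0724).

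The call on Dlx1 depended on the fit. The adjusted p was 0.275 without the dye term, 0.141 after median centring, 0.0738 with the Y-linked genes as a covariate and 0.0724 in the sample channel alone, and it also missed the threshold without EED cKO replicate 2 (0.0512), EED cKO replicate 4 (0.0510) or control replicate 2 (0.0660). The log2 difference in those fits was between 0.19 and 0.26. It was larger without background correction, at 0.36 (limma adjusted p = 0.0177). With the Feature Extraction or deposited ratios it was 1.57 (limma adjusted p = 0.0152 and 0.0153). Those ratios differ in both background treatment and dye normalization, and the cause was not tested. Sample intensities were 42, 41, 58 and 31 on EED cKO replicates 1 to 4 and 37, 30, 54.5 and 29 on the controls, over a background of 20 to 26. Every EED cKO array was thus only slightly brighter than the control array of the same number.

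**Figure D2:**
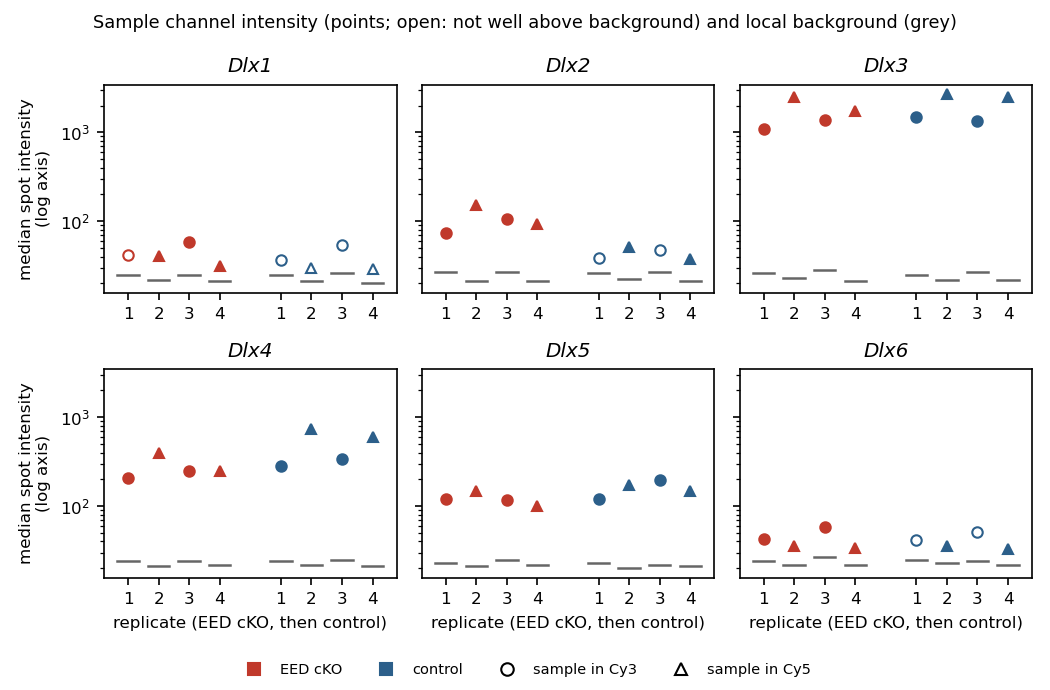
Median spot intensity of the sample channel (vertical axis, log scale) on replicates 1 to 4 of EED cKO (red) and control (blue) for each Dlx gene, with the local background as a grey line, circles for Cy3, triangles for Cy5, and open symbols where the probe was not well above background. Dlx1 (29 to 58) and Dlx6 (32.5 to 58) sit just over the background, Dlx2 rises from 38 to 51 in control to 74 to 152.5 in EED cKO, and Dlx3 (1096.5 to 2701) is bright in both genotypes. Intensities of different probes are not comparable as levels.

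The changes of the members of a pair were compared within each array. The log2 ratio of Dlx4 minus that of Dlx3 averaged 0.74 ± 0.18 (SD, n = 4) for EED cKO arrays and 1.25 ± 0.15 (SD, n = 4) for the controls. This gap changed by -0.50 (exact permutation test, two-sided, p = 0.0286, without adjustment, the smallest possible). Since Dlx3 differed by only -0.04 and Dlx4 by -0.54, the change in the gap mostly restates that of Dlx4. For Dlx6 against Dlx5 the change was 0.36 (exact permutation test, p = 0.0857), and the groups overlapped. No such value is given for Dlx2 against Dlx1, since Dlx1 was well above background on no control array.

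Dlx4, the neighbour of Dlx3 and like it expressed in the placenta, was lower in EED cKO epidermis. Its log2 ratios were 0.55, 0.66, 0.57 and 0.50 on EED cKO replicates 1 to 4 and 1.10, 1.23, 1.00 and 1.12 on control replicates 1 to 4. The highest EED cKO array was below the lowest control array, and the spread within each genotype was small. The means were 0.57 ± 0.07 (SD, n = 4) and 1.12 ± 0.09 (SD, n = 4). The log2 difference was -0.54 (standard error 0.072, 95% interval -0.71 to -0.38, limma adjusted p = 0.00149), or 1.46-fold lower in EED cKO, and the exact permutation test gave p = 0.0286. It was -0.49 among Cy3 and -0.59 among Cy5 arrays, and -0.55, -0.57, -0.43 and -0.62 between arrays of the same number.

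The Dlx4 probe was well above background in both channels of all 8 arrays. Its sample intensity was 209, 393.5, 245.5 and 245 on EED cKO replicates 1 to 4 and 283.5, 738, 336 and 594 on the controls, so within each dye both EED cKO arrays were dimmer than both control arrays. The reference channel differed by 0.04 between the genotypes (limma adjusted p = 0.865). The 2-fold limit was not reached, and in all 21 alternatives the difference stayed between -0.70 and -0.50 with an adjusted p of at most 0.0147. Dlx4 was the 574th largest fall among the genes and targets tested.

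Dlx3, the member with an established role in epidermal differentiation and in the hair matrix, did not pass the test. Its log2 ratios were -0.39, -0.04, -0.23 and -0.02 on EED cKO replicates 1 to 4 and -0.03, -0.12, -0.38 and 0.01 on control replicates 1 to 4. The groups covered nearly the same range. The means were -0.17 ± 0.18 (SD, n = 4) and -0.13 ± 0.18 (SD, n = 4), and the log2 difference was -0.04 with a 95% interval of -0.25 to 0.17 (limma adjusted p = 0.802, exact permutation p = 0.714). The interval leaves out a 2-fold change in either direction. Signal was not the limit here, since the sample intensity was 1096.5 to 2493.5 in EED cKO and 1333 to 2701 in control, far over a background of 21 to 28. The sign of the difference was not fixed and turned positive without EED cKO replicate 1 or control replicate 1.

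Dlx5, which with Dlx6 patterns the lower jaw and promotes osteoblast differentiation, was not called either. Its log2 ratios were 1.59, 1.80, 1.45 and 1.31 on EED cKO replicates 1 to 4 and 1.65, 1.88, 2.11 and 1.64 on control replicates 1 to 4. Of the EED cKO arrays, 3 were below all control arrays, and replicate 2 lay among them. The means were 1.54 ± 0.21 (SD, n = 4) and 1.82 ± 0.22 (SD, n = 4). The log2 difference was -0.28 (95% interval -0.58 to 0.02, limma adjusted p = 0.160, exact permutation p = 0.114). Same-numbered arrays differed by -0.07, -0.08, -0.67 and -0.32, and with the Y-linked genes as a covariate the difference was -0.13. The sample channel was well above background on all 8 arrays, at 100 to 149 in EED cKO and 121 to 198 in control, whereas the reference channel read only 39.5 to 69.

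Dlx6, which acts with Dlx5 in the same tissues, was near background. Its log2 ratios were 0.17, 0.26, 0.19 and 0.20 on EED cKO replicates 1 to 4 and 0.13, 0.14, 0.07 and 0.18 on control replicates 1 to 4. EED cKO replicates 2, 3 and 4 were slightly above all control arrays, and replicate 1 was within their range. The log2 difference was 0.07 (standard error 0.062, 95% interval -0.06 to 0.21, limma adjusted p = 0.433, exact permutation p = 0.0571). With the Feature Extraction ratio it was 0.55 (limma adjusted p = 0.283). The sample intensity was 34 to 58 in EED cKO and 32.5 to 51 in control over a background of 22 to 27, and the reference channel was well above background on 1 of 8 arrays. The offset compresses differences between spots this dim. No change in Dlx6 was detected, and whether the low signal hid one was not tested.

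**Figure D3:**
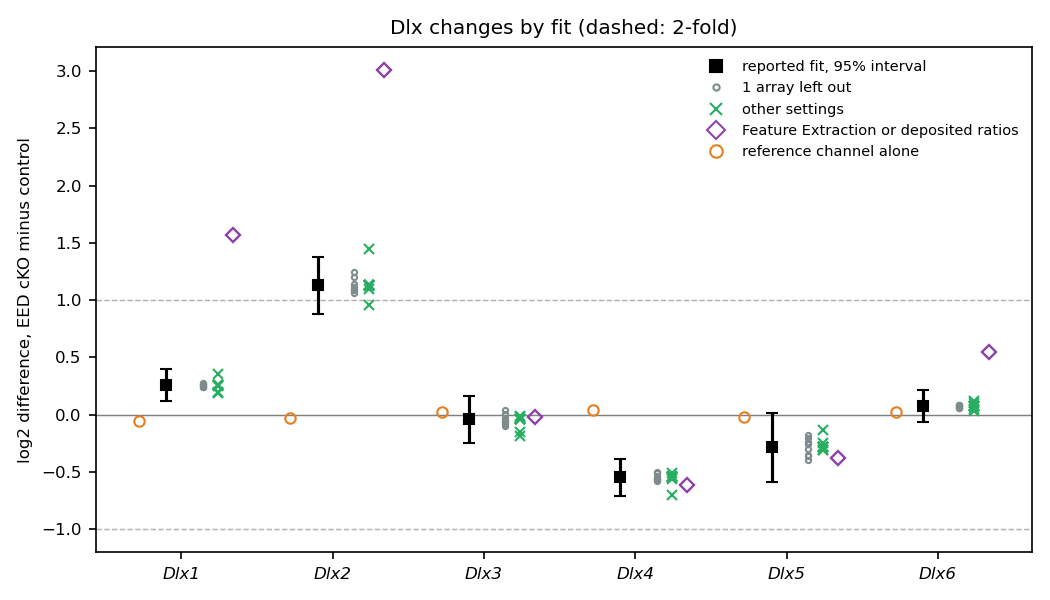
Log2 difference of EED cKO minus control (vertical axis) for each Dlx gene in the reported limma fit (black squares with 95% intervals), with 1 array left out (grey), under other settings (green), from the Feature Extraction or deposited ratios (purple) and in the reference channel alone (orange). Dashed lines mark 2-fold. The Dlx2 difference stays above 0 in every fit, from 0.95 to 3.01, the Dlx4 difference stays between -0.70 and -0.50, and the reference channel values lie between -0.06 and 0.04.

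Noncoding RNAs are transcribed from the same loci, among them Dlx6os1 (Evf2), which is known to regulate Dlx5 and Dlx6 in the forebrain. The probes of Dlx1as, antisense to Dlx1, and of Dlx6os1 were well above background in neither channel of any array, so these RNAs were not tested. Dlx4os had log2 ratios of 0.37, 0.42, 0.09 and 0.42 on EED cKO replicates 1 to 4 and 0.39, 0.68, 0.48 and 0.67 on control replicates 1 to 4. It differed in the same direction as Dlx4, by -0.23 (standard error 0.078, limma adjusted p = 0.0628), without passing the test. Dlx6os2 had log2 ratios of 0.04 to 0.22 in EED cKO and -0.10 to 0.10 in control, and a difference of 0.13 (standard error 0.062, limma adjusted p = 0.154).

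The protein-coding genes around the 3 Dlx pairs, 3 on each side, were measured for comparison. Of these 18 genes, 16 were tested. At an adjusted p below 0.05, 3 were higher and 2 lower, against 11.8% and 9.92% of all genes tested. The largest of these differences was under 2-fold. Of the 5 tested neighbours of Dlx1 and Dlx2, 4 did not pass the test. Metap1d, a methionine aminopeptidase gene next to Dlx1, had a difference of 0.10 (limma adjusted p = 0.597), and Hat1, a histone acetyltransferase gene, one of 0.04 (limma adjusted p = 0.778). Itga6, which encodes an integrin of the hemidesmosome and is the nearest gene on the Dlx2 side, fell by 0.74 (limma adjusted p = 0.00322). Near Dlx3 and Dlx4, Kat7, another histone acetyltransferase gene, fell by 0.59 (limma adjusted p = 0.00193) and Samd14 rose by 0.27 (limma adjusted p = 0.0436). Near Dlx5 and Dlx6, the succinate dehydrogenase assembly factor gene Sdhaf3 rose by 0.46 (limma adjusted p = 0.00457) and Tac1, the substance P precursor gene, by 0.33 (limma adjusted p = 0.0109). Tac1 was well above background on 3 EED cKO arrays and on no control array. It was thus tested through the EED cKO arrays alone, and its place among the 3 higher genes depends on that filter. The ratio of its means in the sample channel was at least 1.24-fold, with no allowance for the spread between arrays.

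**Figure D4:**
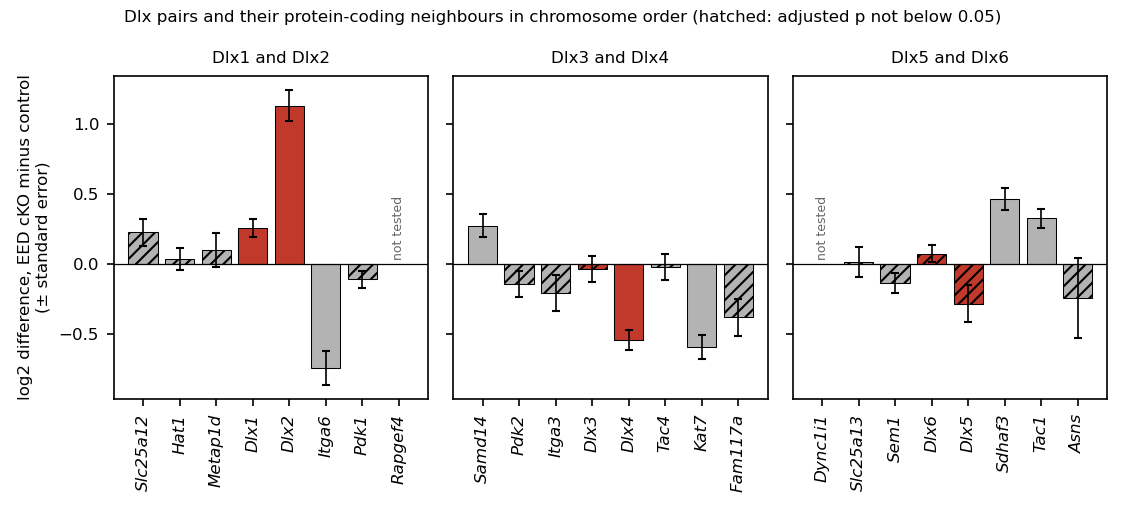
Log2 difference of EED cKO minus control with its standard error (vertical axis) for the Dlx genes (red) and the 3 protein-coding genes on each side of a pair (grey), in the order in which they lie on the chromosome, with hatching where the adjusted p was not below 0.05. Dlx2 at 1.13 stands above its neighbours, of which Metap1d (0.10) and Itga6 (-0.74) are the nearest on either side of the Dlx1 and Dlx2 pair.

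The genes whose pattern over the 8 arrays was most like that of a called Dlx gene were found from the root mean square difference of the centred log2 ratios. Because they were chosen on these same arrays, their genotype differences lie near that of the Dlx gene by selection. For Dlx2 they were Gata6, a zinc finger transcription factor gene (0.078), S100a6, which encodes a calcium-binding protein (0.096), and the noncoding Vax2os (0.110), with log2 differences between the genotypes of 1.15, 1.13 and 1.05. For Dlx4 they were Btaf1 (0.047), which encodes a partner of the TATA-binding protein, Kansl3 (0.049), which encodes a subunit of a histone acetyltransferase complex, and the polarity gene Pard6g (0.051), with differences of -0.49, -0.49 and -0.47. For Dlx1 they were Spata13 (0.046), Col9a3 (0.048) and Ebf4 (0.052). The difference of Spata13 was 0.29 (limma adjusted p = 0.0134) and that of Ebf4 was 0.20, without passing the test (limma adjusted p = 0.0639). Col9a3 was well above background on no control array and did not pass the test either (limma adjusted p = 0.0731). The ratio of its means in the sample channel was at least 1.11-fold, with no allowance for the spread between arrays.

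Genes taken to act with, before or after the Dlx factors were put in lists, and the role of each member was not tested here. For comparison, 11.8% of all genes tested rose and 9.92% fell at an adjusted p below 0.05, with a median difference of 0.019. Of 16 genes listed as ectodermal factors acting with or upstream of Dlx, all were tested, 2 rose, 6 fell and 8 did not pass. Their median difference was -0.08. The homeobox gene Msx3 was higher by 0.63 (limma adjusted p = 0.00132). Msx1 and Msx2 on the same list did not pass, at 0.18 and 0.23 (limma adjusted p = 0.111 and 0.0778). The ligand gene Bmp4 was higher by 0.58 (limma adjusted p = 0.00142), whereas Lef1, a mediator of Wnt signaling, fell by 0.76 (limma adjusted p = 0.00441). The others that fell, named after their values were seen, were Tfap2b, Klf4, Grhl2, Bmp2 and Tfap2a, at -0.87 to -0.30. Trp63, which is known to activate Dlx3 in the epidermis, had a difference of 0.04 (limma adjusted p = 0.756).

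Among the hair matrix and shaft genes linked to Dlx3, 12 were tested, 3 rose and 2 fell, with a median of -0.03. Over all genes tested, 11.8% rose and 9.92% fell, with a median of 0.019. The inner root sheath keratin gene Krt27 was higher by 1.33 (standard error 0.41, limma adjusted p = 0.0441), but its control arrays ranged from 0.59 to 2.87 and overlapped those of EED cKO. Of 11 cornified envelope genes tested, 4 rose and 7 did not pass, with a median of 0.28, and Rptn, which encodes repetin, was higher by 1.48 (standard error 0.30, limma adjusted p = 0.00867).

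Of the 16 forebrain genes listed as downstream of Dlx1 and Dlx2, 15 were matched to a probe and 7 passed the filter on dim probes. Of these, 1 rose and 1 fell, against 11.8% and 9.92% of all genes tested, and their median was -0.002 against 0.019. Gad1, which encodes a GABA-synthesizing enzyme, was higher by 0.35 (limma adjusted p = 0.00673), having passed the filter through the EED cKO arrays alone, with 4 of them and 1 control array well above background, and the chemokine receptor gene Cxcr4 fell by 0.49 (limma adjusted p = 0.0272).

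Of the branchial arch and bone genes of the Dlx5 and Dlx6 pathway, 9 of 19 were tested, 4 rose and 5 did not pass. The share that rose among all genes tested was 11.8%. The median of the 9 was 0.20 against 0.019 over all genes tested. Among them, Gsc and Bglap passed the filter on dim probes through the EED cKO arrays alone, with 0 and 2 control arrays well above background. The filter can therefore tilt both the count and the median towards a rise. Neither Dlx5 nor Dlx6 passed the test. Gsc, a homeobox gene of the lower jaw primordium, was well above background on each of the 4 EED cKO arrays but on 0 control arrays. The ratio of its means in the sample channel was at least 3.27-fold, with no allowance for the spread between arrays. Its log2 difference was 1.74 (limma adjusted p = 0.00011). Hand1 and Barx1, transcription factor genes of the same arches, were well above background on 0 arrays.

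Markers of other cell types moved with genotype as well, next to 11.8% of all genes tested that rose and 9.92% that fell. All 6 Merkel cell markers rose, led by Krt20 at 1.12 (limma adjusted p = 6.93e-05), and their summed sample signal was 1956 to 2381 in EED cKO against 1226 to 1602 in control. Atoh1, Isl1 and Sox2 among them passed the filter through the EED cKO arrays alone, with 2, 2 and 0 control arrays well above background. Both endothelial markers that could be tested of 6, Kdr and Pecam1, rose by 0.62 and 0.89, and the summed signal of the 6 was 4649 to 6116 against 2785 to 4214, while Cdh5, Tek and Esam were well above background on 0 arrays. Of the others, 2 of 6 immune markers (Cd3e and Cd74) and 1 of 8 fibroblast markers (Lum) rose, 1 of 5 Schwann cell and neuron markers (Sox10) and 2 of 8 keratinocyte markers (Itgb4 and Col17a1) fell, and the 6 melanocyte, 3 muscle and 3 erythroid markers tested did not pass. The summed signals of immune markers (2793 to 4023 against 2218 to 3400) and keratinocyte markers (326500 to 410900 against 370800 to 500100) overlapped. The part of these cell types in the differences of Dlx1, Dlx2 and Dlx4 was not tested.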

How the data were processed

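Epidermis from the back skin of newborn mice (4 EED cKO, 4 control samples) was measured on 2-colour Agilent mouse arrays, with 100 ng of total RNA labelled per sample. Groups, replicate numbers and dyes come from the labels. The authors extracted spots with Agilent Feature Extraction 12.0.1.1 and deposited, per array, the median intensity of spot and local background in each channel without normalization, and a log10 ratio computed after the software's own background subtraction and dye normalization. The deposited table holds log2 ratios of sample over reference, which were within 1e-05 of those of the processed signals for all probes with 1 spot, without centring.

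Median intensities were corrected with normexp (offset 50), normalized by loess with control and outlier spots at weight 0, and turned to sample over reference in limma 3.58.1 under R 4.3.3. Spots of a probe were averaged, and of several probes to a gene the brightest was used. Names came from the RefSeq accession of a probe, which was found in the GRCm38.p6 annotation for 28026 of 29796. The array was designed on mm9, so gene coordinates are not given beyond the promoter windows, which are those of RefSeq on GRCm38.p6. A target was tested if the sample channel was flagged well above background on 3 or more of the 4 arrays of either genotype. Of 23155 tested, 14962 had a symbol, and 19 missing values, none of a Dlx gene, were filled with the group mean. Genotype was fitted with the dye of the sample as a covariate (lmFit, eBayes) with Benjamini-Hochberg adjustment over all 23155. The limma fit was tested on simulated data. For single genes an exact permutation test over the 8 arrays was added (70 regroupings, two-sided). A gene well above background on no array of a group is given as a bound, the brighter group's mean sample channel against the dim group's mean, where an array's value is raised to its lowest signal well above background if it is under that. Such a bound makes no allowance for the spread between arrays, and the precision is limited by 4 arrays a genotype.

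The members and lists were chosen with earlier results of these data known. Genes named were all Dlx genes, the RNAs of their loci, the 3 protein-coding neighbours on each side of a pair, the 3 genes most like each called Dlx gene, and, from each list, the members past 2-fold at an adjusted p below 0.05 or, where there were none, the 3 with the smallest adjusted p below 0.05. Genes given as examples of members that were not tested or not called were chosen after their values were seen. Lists are described by counts and medians only. The correlations of deviations from the group means between arrays of the same number were 0.49, 0.68, 0.33 and 0.36, and with the dye removed 0.13, 0.46, 0.13 and 0.46, each over 0.1, although replicate 3 correlated more with another number (0.41 before removal of the dye). The reported fit has no block, and the replicate number was fitted as a block as an alternative. The number also marks the column of the slide.

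Alternatives were no background correction, the Feature Extraction ratio, the deposited table, median centring, Aquantile, no or a stricter filter, the mean of a gene's probes, no dye term, a replicate block, the methods' t-test, a Y-linked covariate, each array left out and, added after seeing the data, the sample channel alone.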

Additional observations from a re-analysis of the deposited data

Results flagged for a closer look

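In 2 of the 20 sets of 4 arrays checked, 1 array stood far from the other 3 of its genotype, which chance gives in about 1 set of 20. For Dlx2, EED cKO replicate 1 at a log2 ratio of -1.74 lay away from -1.38 to -1.34 on the other EED cKO arrays, a gap of 0.908 of the whole range. It lay on the side of the controls, and the limma difference without it was 1.24 (adjusted p = 0.00024). For Dlx4os, EED cKO replicate 3 at 0.09 lay away from 0.37 to 0.42, a gap of 0.849 of the range, and this was also the one EED cKO array on which the probe was not well above background.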

How the results depend on the processing

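Over 21 alternatives, Dlx2 and Dlx4 kept their direction and an adjusted p below 0.05 in all, Dlx5 and Dlx6 kept theirs without passing in any, and Dlx1 passed in 12 of the 20 that retained it, since it dropped out with the filter of all 4 arrays. The Dlx1 difference did not pass under median centring (0.19), without the dye term or in the methods' t-test (0.26 in both), with the Y-linked covariate (0.25) or in the sample channel alone (0.20), and with 1 array left out it was 0.24 to 0.28. Dlx3 ranged from -0.10 to 0.044 with 1 array left out, being 0.0071 without EED cKO replicate 1 and 0.044 without control replicate 1. The Dlx2 difference was 1.06 to 1.24 with 1 array left out, 3.01 with the Feature Extraction or deposited ratios and 0.95 with median centring, under 2-fold. The number of Dlx genes called past 2-fold was therefore 2 with the Feature Extraction ratio, 2 with the deposited table, Dlx1 being at 1.57 in both, and 0 with median centring. The cause was not tested. In the replicate block the differences were 0.26 for Dlx1 (limma adjusted p = 0.0244), 1.13 for Dlx2 (0.00115), -0.54 for Dlx4 (0.00197) and -0.28 for Dlx5 (0.0887), and no call on a Dlx gene changed. Aquantile leaves log ratios as they are and gave the same values. Over all genes, the 5027 with an adjusted p below 0.05 became 2554 with median centring, 2358 without the dye term, 913 in the methods' t-test, 2793 with the Y-linked covariate, and 3337, 2947 and 2719 without EED cKO replicate 3, EED cKO replicate 4 and control replicate 2. The 278 also past 2-fold became 702 and 701 with the Feature Extraction and deposited ratios and 175 in the methods' t-test. Dlx6 was 0.55 with the Feature Extraction and deposited ratios. Signal over background limits Dlx1, Dlx6 and, in control, Dlx2.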
